A study of Mus musculus with 6 samples.

Results

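The genes of the respiratory chain and of ATP synthase were compared between a pair of progenitor populations sorted from mouse bone marrow. The set took every gene of the count table whose symbol starts with Nduf, Uqcr or Atp5, or with Cox followed by a digit from 4 to 8, together with Sdha, Sdhb, Sdhc, Sdhd, Cyc1 and Cycs, and it left out pseudogenes. Of 22271 genes in the table, 93 belonged to it: 38 for complex I, 8 for assembly factors of complex I (the Ndufaf genes), 4 for complex II, 9 for complex III, 1 for cytochrome c, 16 for complex IV and 17 for ATP synthase. The cells came from C57BL/6JRj mice, and no genetic change or treatment is named in the labels. The groups were CD27-high MODP (3 libraries) and CD27-low MOP (3 libraries). By its title, the study places a progenitor of macrophages and osteoclasts below one that also gives dendritic cells. The sources used here do not give age, sex or the number of animals behind a library, so p-values measure the spread between libraries, which may be partly technical.

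The respiratory chain sits in the inner mitochondrial membrane. Complex I takes electrons from NADH and complex II takes them from succinate, both pass them through ubiquinone to complex III, and cytochrome c carries them on to complex IV, which reduces oxygen. Complexes I, III and IV pump protons, and ATP synthase uses the returning protons to make ATP. Most subunits are encoded in the nucleus, as all genes of this set are, and a small core is encoded by mitochondrial DNA. Mature osteoclasts are rich in mitochondria. Several complex IV subunits exist in a widespread form and in a form typical of muscle or another tissue.

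Library totals ran from 10701425 to 15892640 counts, and values are given as CPM (counts per 1000000, scaled by TMM factors). Cd27, the receptor used in the sort, measured 35.3, 38.9 and 38.6 CPM in MODP replicates 1 to 3 and 4.56, 3.52 and 3.64 CPM in MOP. Markers of other cells also moved with the groups. By edgeR, 10 of 12 monocyte and macrophage markers and 9 of 10 basophil and mast cell markers were higher in MOP, and 10 of 12 stem and early progenitor markers and 6 of 10 T and NK cell markers were lower. Their summed levels were 3474 to 4645 CPM in MODP and 9022 to 9965 in MOP for monocyte and macrophage markers, and 567 to 1175 and 3430 to 5376 for basophil and mast cell markers. For stem and early progenitor markers the sums were 1195 to 1322 in MODP and 473 to 518 in MOP. For T and NK cell markers they were 224 to 292 in MODP and 67.4 to 109 in MOP, mostly from Nkg7. Cd27 is itself on the stem and early progenitor list, so its part in that count and that sum was fixed by the sort. Of 11 tested erythroid and megakaryocyte markers, 5 were higher in MOP and none was lower by edgeR (1 was at an unadjusted p under 0.05 and by DESeq2), with sums of 173 to 583 CPM (MODP) and 504 to 695 (MOP). Of 10 dendritic cell markers, 2 were higher and 3 lower, with sums of 224 to 422 CPM (MODP) and 267 to 336 (MOP). Stromal and endothelial markers summed to 3238 CPM in MODP replicate 2 and to 169 to 551 CPM in the other libraries. Late neutrophil markers, none of 12 called by edgeR or DESeq2 or at an unadjusted p under 0.05, summed to 18694 CPM in MODP replicate 2 and 14722 in MOP replicate 2, against 2578 to 7249 in the other 4 libraries. Of these lists, the stromal list alone had markers at 0 in a library (Lepr and Pdgfra). The part of these other cells in the results below was not tested. In such bulk libraries, fewer cells of a type and less RNA per cell cannot be told apart.

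The nuclear genes of the chain differed little in message between the populations, whereas most subunits encoded by mitochondrial DNA, outside the set and described further on, were lower in MOP. Of 91 members with enough counts to test, 10 were lower in MOP and 1 was higher, by edgeR's quasi-likelihood test with an adjusted p under 0.05. The lower genes were Ndufa4, Ndufb5, Ndufs7, Ndufaf2, Ndufaf4, Ndufaf6, Uqcr11, Cox6a2, Cox6c and Atp5s, and the higher gene was Cox6a1. Thus 12.1% of the members passed, whereas 31.2% of all 12850 tested genes did (16.3% higher and 14.9% lower). The share of members lower in MOP was 8.11% for complex I, 37.5% for its assembly factors and 11.1% for complex III. For complex IV it was 13.3%, for ATP synthase 5.88%, and for complex II and cytochrome c 0%. Of the 80 members that did not pass, 75 had a 95% interval of the log2 fold change that stayed within 1.5-fold in either direction. Over all 91 tested members the interval stayed within those bounds for 81, against 54.1% of all tested genes.

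**Figure D1:**
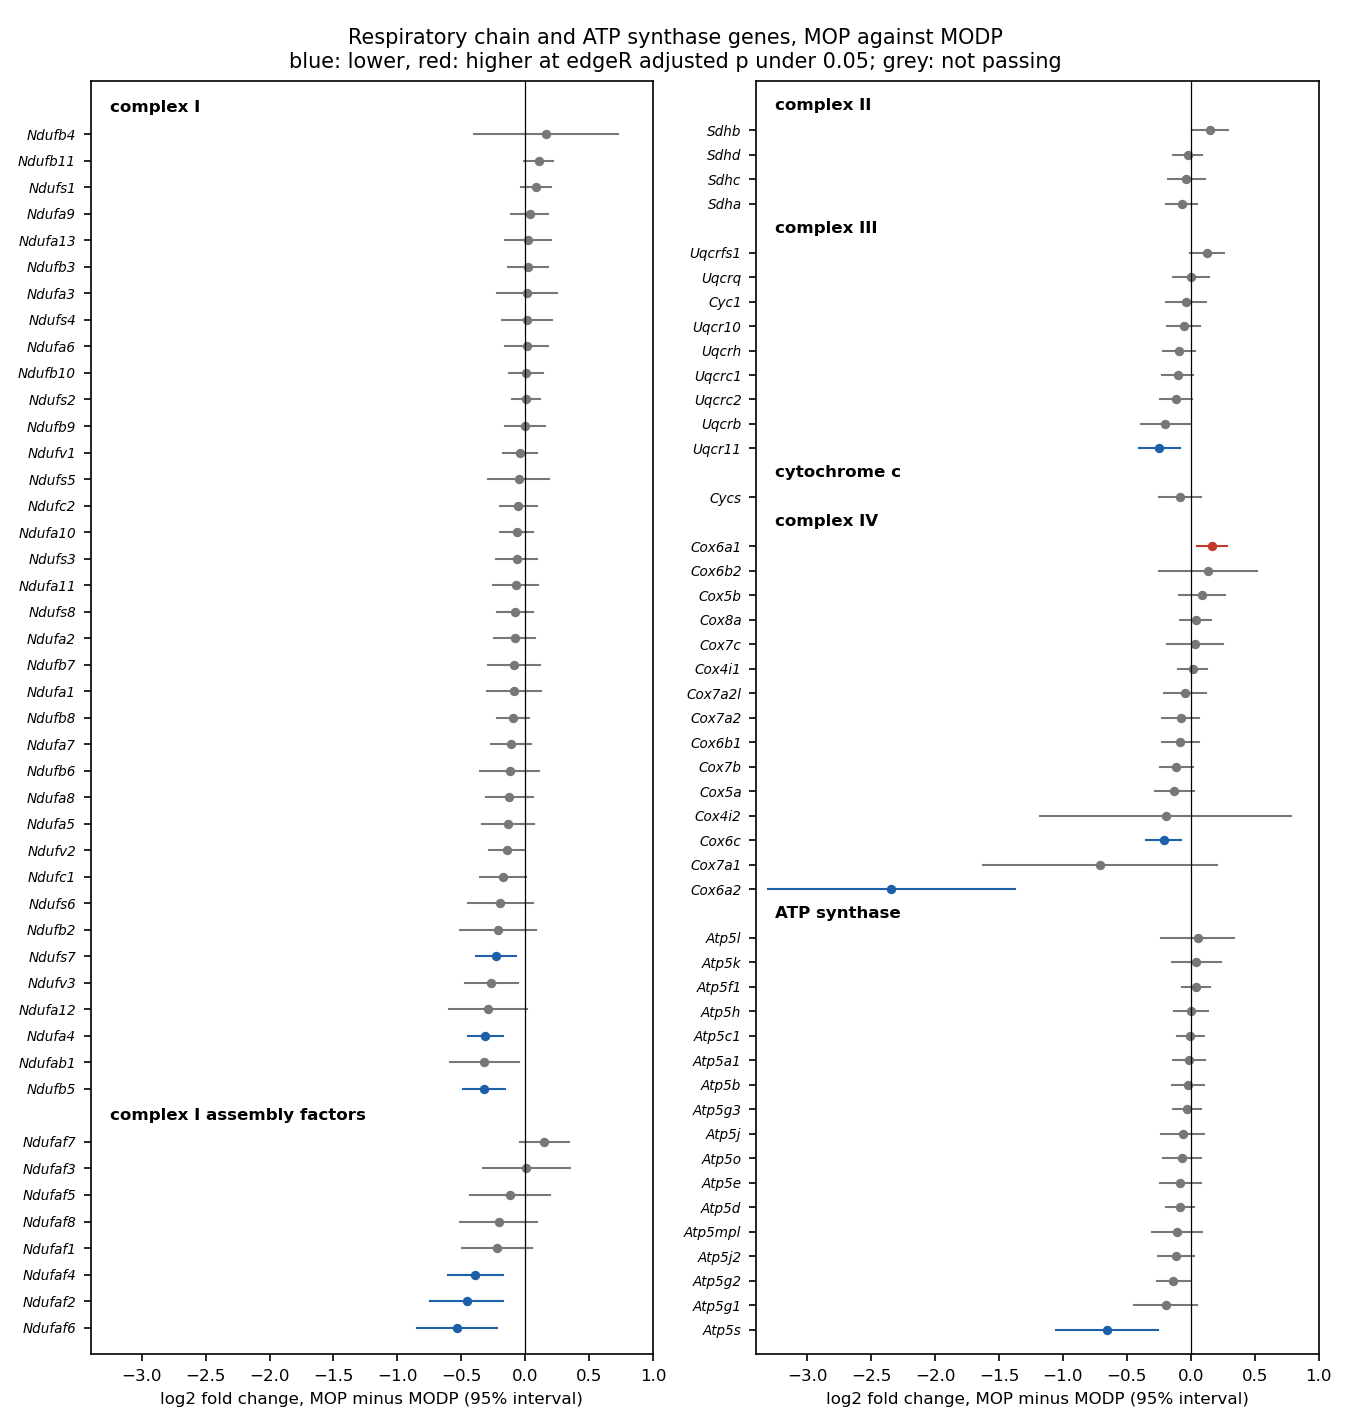
Log2 fold change of each tested gene (point) with its 95% interval (line), MOP minus MODP, grouped by complex; the horizontal axis is log2. Most points lie between -0.3 and 0.2, Cox6a2 stands far to the left at -2.34, and Cox6a1 is the 1 red point.

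The small differences leaned one way. The median log2 fold change was -0.08 over the members and -0.01 over all tested genes, and 65 of 91 members (71.4%) had a value below 0, against 51.2% of all tested genes. The 3 MOP values all lay below the 3 MODP values in 27 members and all above them in 5, where 23.8% of all tested genes did the former and 23.8% the latter. With an offset that removes the trend of the fold change with transcript length, the member median was -0.02 and the split was 4 higher (Cox6a1, Ndufb11, Sdhb and Uqcrfs1) and 6 lower. All tested genes shorter than 1000 bases had a median of -0.07, and the 56 members of that length had -0.08. In that length class 23.3% of all tested genes and 14.3% of the members passed.

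Cox6a2, Ndufa4 and Ndufb5 passed in all 16 alternative fits, while the other 8 calls each depended on at least 1 library. Without MODP replicate 1, no other call was left. Without MOP replicate 1, Ndufaf2 and Ndufaf4 also passed. Without MOP replicate 2, Atp5s and Ndufaf6 passed beside the 3, and without MODP replicate 3, Cox6c did. Without MOP replicate 3, Ndufaf4, Ndufs7 and Uqcr11 passed beside them. Without MODP replicate 2, 9 members were lower and 3 were higher, Sdhb and Uqcrfs1 among the latter. Without both replicate 2 libraries, which held the most neutrophil marker RNA, 6 were lower (Cox6a2, Ndufa4, Ndufb5, Ndufaf4, Ndufaf6 and Atp5s) and 0 were higher.

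**Figure D2:**
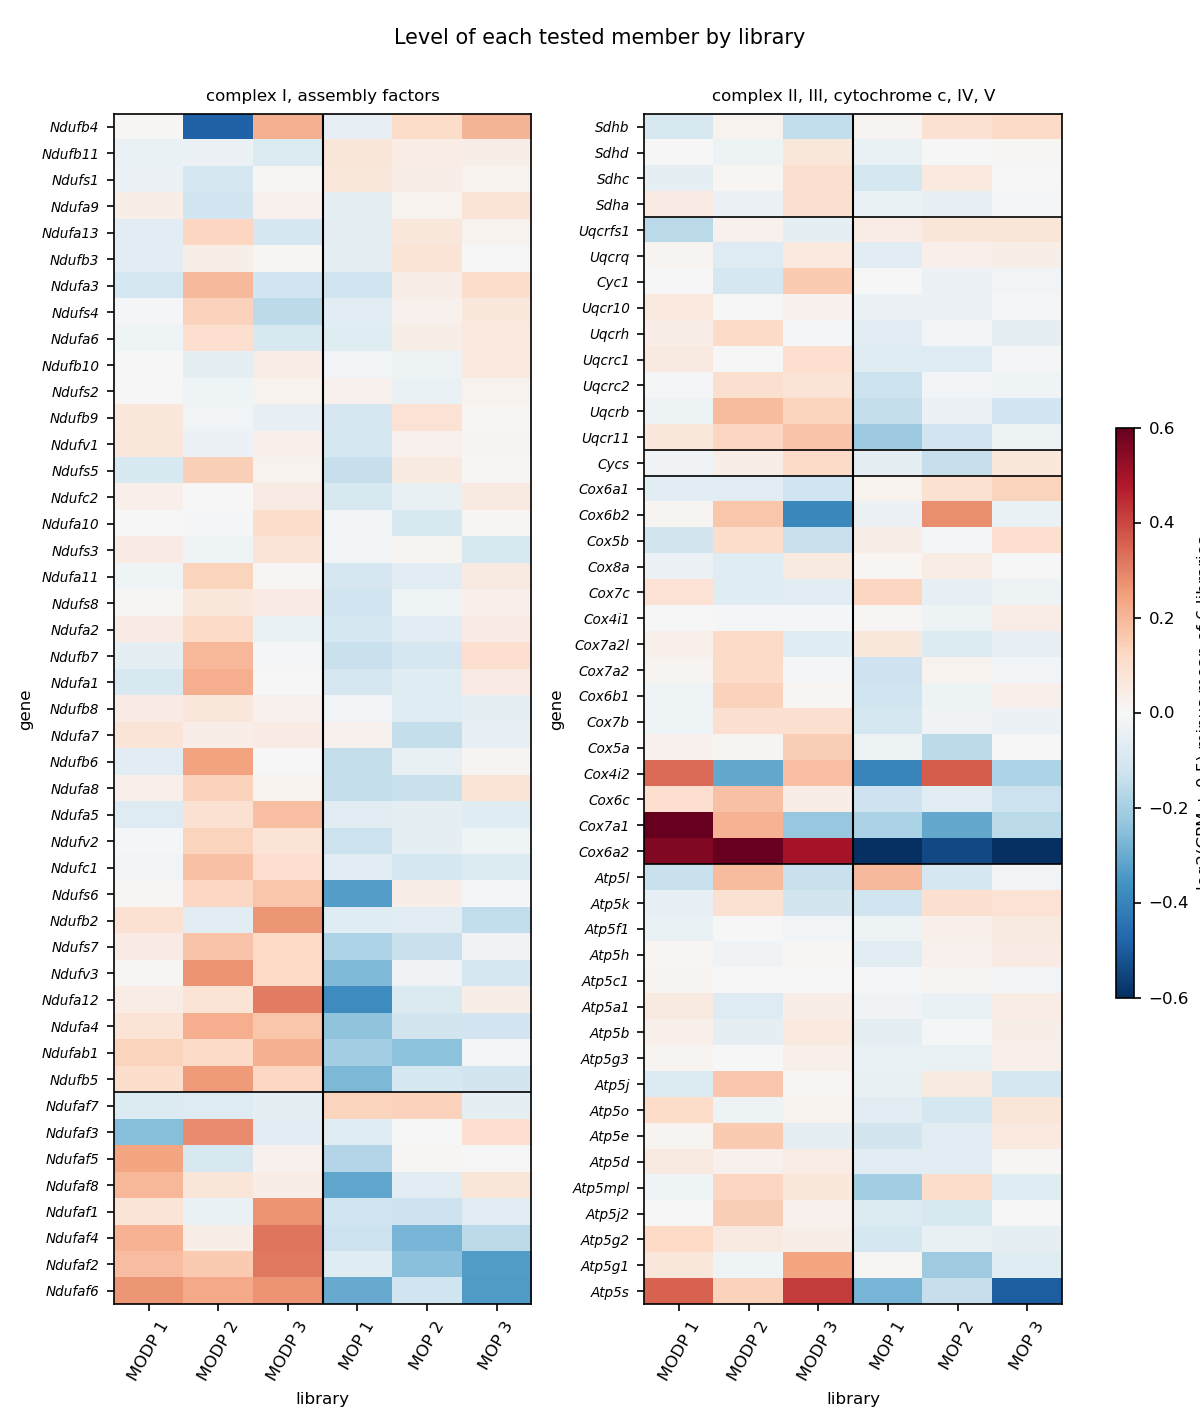
Each row is a tested gene, each column a library; colour gives log2(CPM + 0.5) minus that gene's mean over the 6 libraries, with colours ending at -0.6 and 0.6. Cox6a2 and Atp5s are red in MODP and blue in MOP, while most rows are pale in all 6 libraries.

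In complex I, 3 of 37 tested subunit genes were lower in MOP, none was higher, and the median log2 fold change was -0.08. No complex I gene was above 0 at an unadjusted p under 0.05, and none was higher by DESeq2. Ndufa4 encodes a small protein first described in complex I and later placed in complex IV, and it is counted in complex I here by its symbol. It measured 158, 174 and 168 CPM in MODP replicates 1 to 3 and 126, 139 and 138 CPM in MOP. Every MOP library was below every MODP library, and Ndufa4 fell by 0.31 ± 0.06 on the log2 scale (SE, n = 3 per group, edgeR adjusted p = 0.0059). Ndufb5, an accessory subunit of the membrane arm, measured 82.8, 92.0 and 83.9 CPM in MODP and 63.7, 71.5 and 71.3 CPM in MOP. The groups were again apart, with a fall by 0.32 ± 0.07 (edgeR adjusted p = 0.011). Ndufs7, a core subunit that holds an iron-sulfur cluster next to the ubiquinone site, measured 62.1, 67.6 and 65.4 CPM in MODP and 52.9, 54.7 and 59.2 CPM in MOP. It fell by 0.23 ± 0.07 (edgeR adjusted p = 0.037, and up to 0.14 over the alternative fits, of which it passed 7). Its groups did not overlap, but MOP replicate 3 came close to MODP replicate 1. Where the replicate number was a block, 7 complex I genes were lower, with Ndufa12, Ndufab1, Ndufv2 and Ndufv3 added (edgeR adjusted p with the block 0.038, 0.048, 0.047 and 0.0062). Ndufa4l2, the paralog of Ndufa4 that is known as a hypoxia target, had 2 reads, both in MOP replicate 2, and was not tested. Ndufs3 shares 55.0% of its 31-base words with other genes, the pseudogene Gm12251 foremost, so its reads are uncertain.

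The assembly factors named Ndufaf, which help build complex I and are not part of the finished enzyme, were expressed at low levels. Of 8 tested, 3 (37.5%) were lower (edgeR, adjusted p under 0.05), against 14.9% of all tested genes. None was higher by edgeR or DESeq2 or at an unadjusted p under 0.05, and the median log2 fold change was -0.22. Ndufaf6 measured 9.93, 9.67 and 9.96 CPM in MODP and 6.54, 7.48 and 6.36 CPM in MOP, a fall by 0.53 ± 0.14 (SE, edgeR adjusted p = 0.019). Ndufaf4 measured 33.7, 29.9 and 36.4 CPM in MODP and 26.5, 23.9 and 26.0 CPM in MOP, a fall by 0.39 ± 0.09 (edgeR adjusted p = 0.016). In both genes the 3 MOP values lay under all 3 MODP values. Ndufaf2 went from 12.8, 12.6 and 14.1 CPM to 10.7, 9.33 and 8.78 CPM, a fall by 0.46 ± 0.13 (edgeR adjusted p = 0.025). Its reads are uncertain, since 81.1% of its 31-base words lie also in other genes, the overlapping noncoding gene B230220B15Rik foremost. Ndufaf8, the most abundant of these genes per length, did not pass, at 15.4, 14.1 and 13.8 CPM in MODP and 10.7, 12.7 and 14.1 CPM in MOP. Its groups overlapped through MOP replicate 3. None of the 3 calls held without MODP replicate 1 or without MODP replicate 3.

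Complex II, the succinate dehydrogenase that also works in the citrate cycle, had no gene past the threshold among its 4 (edgeR). DESeq2 called 0, and 1 gene, Sdhb, had an unadjusted p under 0.05. Sdha, the flavin subunit, measured 411, 387 and 424 CPM in MODP and 386, 384 and 394 CPM in MOP. Sdhb, the iron-sulfur subunit, measured 97.1, 105 and 93.9 CPM in MODP and 105.2, 111 and 113 CPM in MOP. The lowest MOP library of Sdhb lay just under the highest MODP library, and the gene did not pass, at a log2 fold change of 0.15 ± 0.06 (SE, edgeR adjusted p = 0.098). The membrane anchors Sdhc and Sdhd had log2 fold changes of -0.03 ± 0.06 and -0.02 ± 0.05. All 4 intervals stayed within 1.5-fold. With the length offset, Sdhb passed, and the median of the 4 genes moved from -0.03 to 0.00.

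Among the 9 genes of complex III, which moves electrons from ubiquinol to cytochrome c, Uqcr11 was lower in MOP and none was higher by edgeR, by DESeq2 or at an unadjusted p under 0.05. Uqcr11, a small accessory subunit, measured 67.3, 70.5 and 72.6 CPM in MODP and 55.2, 59.3 and 63.0 CPM in MOP. The groups did not overlap, and it fell by 0.25 ± 0.07 (SE, edgeR adjusted p = 0.028, and up to 0.12 over the alternatives, of which it passed 10). Uqcrh, the hinge protein and the most abundant gene of complex III per length, measured 103, 109 and 99.6 CPM in MODP and 96.2, 99.3 and 96.6 CPM in MOP. At -0.09 ± 0.05 on the log2 scale it did not pass. Cyc1, which encodes cytochrome c1, spanned 134 to 160 CPM over the MODP libraries and 141 to 143 CPM over those of MOP, so the MOP libraries lay inside the MODP range. Cycs, the mobile cytochrome c, spanned 79.4 to 87.2 CPM over MODP and 73.1 to 84.3 CPM over MOP, with a log2 fold change of -0.09 ± 0.07.

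Complex IV held the largest fold among the members and the 1 higher gene, and both encode subunit 6A. Cox6a2, the form typical of heart and skeletal muscle, had 27, 47 and 30 reads in MODP replicates 1 to 3 and 6, 12 and 6 reads in MOP, or 2.22, 4.41 and 2.11 CPM against 0.441, 0.767 and 0.454 CPM. No library of MOP reached the lowest of MODP, and replicate 2 was the highest in both groups. Its log2 difference, MOP minus MODP, came to -2.34 ± 0.42 with a 95% interval from -3.31 to -1.38 (SE, edgeR adjusted p = 0.0044), a level 5.07-fold lower in MOP. Cox6a1, the widespread form, measured 175.6, 175.5 and 168.7 CPM in MODP and 186.5, 195.2 and 201.5 CPM in MOP. All MOP libraries lay above all MODP libraries, and Cox6a1 rose by 0.17 ± 0.05 (edgeR adjusted p = 0.040). That call held in 8 of the 16 alternatives, with an adjusted p of up to 0.15, and the direction held in all of them. Cox6a2 made up 1.25%, 2.45% and 1.23% of the summed CPM of both genes in MODP and 0.236%, 0.392% and 0.225% in MOP, so Cox6a1 supplied nearly all of the subunit 6A message in every library. The summed T and NK cell markers were lower in MOP as well (MODP 224, 292 and 253 CPM, MOP 67.4, 109 and 96.7 CPM). Nkg7 alone gave most of these sums, at 203, 237 and 239 CPM in MODP and 64.9, 99.1 and 92.2 CPM in MOP. The other markers of the list reached at most 11.4 CPM in a library (Gzma in MODP replicate 2). The sums therefore mostly show Nkg7, although 6 of the 10 markers, Nkg7 among them, were lower by edgeR. The sum was highest in replicate 2 of each group, whereas Nkg7 was highest in MODP replicate 3. The summed B cell markers were 66.0, 133 and 44.3 CPM in MODP and 39.2, 80.7 and 48.0 CPM in MOP, with replicate 2 highest in each group and 0 of 8 genes called by edgeR or DESeq2 or at an unadjusted p under 0.05. Replicate 2 was also highest in each group for the summed late neutrophil, eosinophil, erythroid and megakaryocyte, dendritic cell, and stromal and endothelial markers. The dendritic cell list joins conventional and plasmacytoid markers, with log2 fold changes from -1.86 to 2.07. Its sum therefore does not show either kind alone. The summed stem and early progenitor markers, Cd27 of the sort among them, were lower in every MOP library too. The part of any of these cells in the Cox6a2 difference was not tested.

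The final 150 coding bases of both genes are shown because the difference between the forms would be blurred if their reads were mixed. Capitals mark the 50 positions where the sequences differ, read from the GENCODE M21 transcripts, 5′ to 3′ without the stop codon.
Cox6a1: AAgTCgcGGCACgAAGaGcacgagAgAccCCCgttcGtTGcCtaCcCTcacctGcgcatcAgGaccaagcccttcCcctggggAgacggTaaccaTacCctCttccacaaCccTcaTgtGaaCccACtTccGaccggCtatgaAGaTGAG
Cox6a2: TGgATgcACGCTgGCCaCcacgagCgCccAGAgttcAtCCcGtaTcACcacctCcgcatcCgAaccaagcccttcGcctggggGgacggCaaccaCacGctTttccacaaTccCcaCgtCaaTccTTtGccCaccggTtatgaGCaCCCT
These stretches were 66.7% identical, their longest identical run was 12 bases, and no 31-base word was common to both. Cox6a2 also overlaps the gene Itgad, which holds 6.15% of its 31-base words, and the strand setting of the counts is not given. Whether reads of Itgad entered the Cox6a2 count was not tested.

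**Figure D3:**
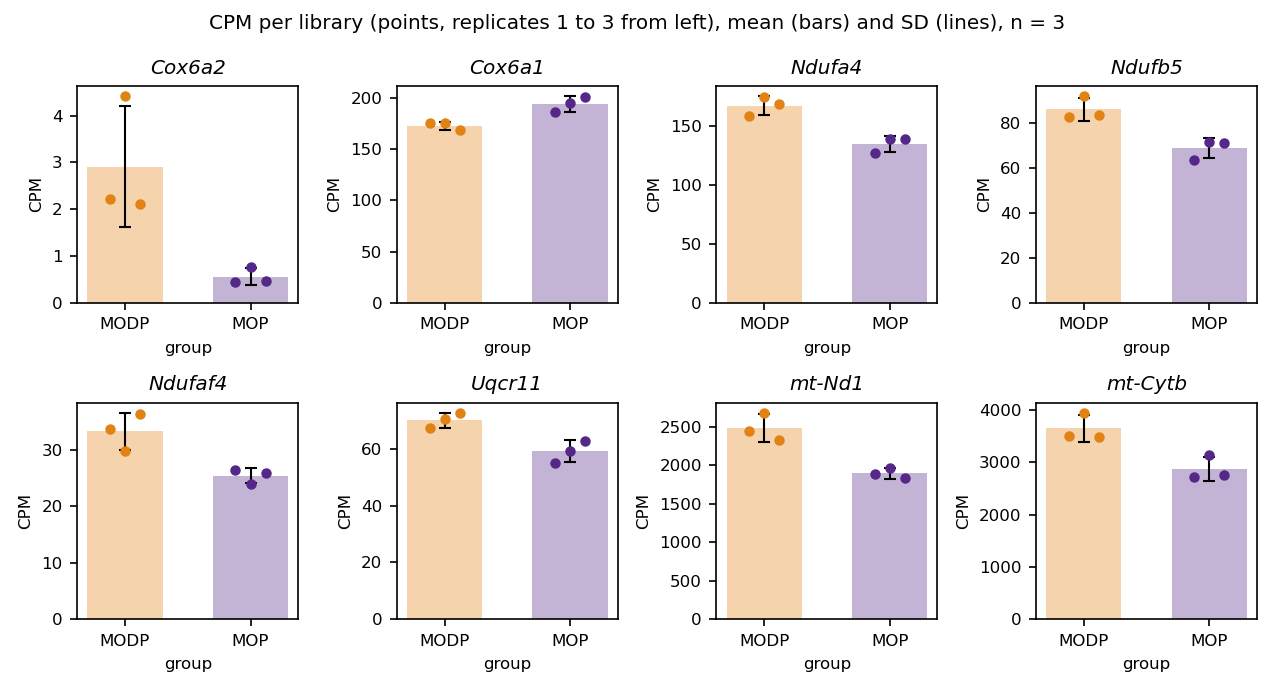
CPM of 8 genes in MODP and MOP, with points for libraries, bars for means and lines for the SD (n = 3 per group); each vertical axis starts at 0. Cox6a2 stays under 5 CPM in every library and Cox6a1 lies above 168 CPM, while mt-Nd1 and mt-Cytb, encoded by mitochondrial DNA, are lower in all MOP libraries.

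The other paralog pairs of complex IV showed no call. Cox4i1, the widespread subunit 4, measured 305, 304 and 303 CPM in MODP and 307, 299 and 315 CPM in MOP, so both groups shared one range. Cox4i2, its form known from lung, lay between 0.588 and 1.34 CPM in all 6 libraries. Cox6b1 ranged from 153 to 172 CPM in MODP and from 143 to 159 CPM in MOP, and Cox6b2, the form known from testis, from 10.7 to 16.0 and from 13.8 to 17.3 CPM. Cox7a1, the muscle form of subunit 7A, measured 1.89, 1.22 and 0.772 CPM in MODP and 0.809, 0.703 and 0.833 CPM in MOP, with a log2 fold change of -0.71 ± 0.40 that did not pass. Its MOP values lay around the lowest MODP library. Cox7a2 and Cox7a2l, of which the latter helps join complexes III and IV into supercomplexes, had log2 fold changes of -0.08 ± 0.06 and -0.05 ± 0.07. Cox7b and Cox8a, single widespread forms here, had -0.11 ± 0.06 and 0.04 ± 0.05. Cox8b, the muscle form of subunit 8, had at most 2 reads in a library and was not tested. Cox6c, a small subunit without a paralog in the set, was the remaining call of complex IV. It measured 86.2, 90.7 and 82.5 CPM in MODP and 73.7, 76.5 and 73.5 CPM in MOP, with no overlap, and fell by 0.21 ± 0.06 (SE, edgeR adjusted p = 0.027, passing in 10 of 16 alternatives).

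ATP synthase gave the largest summed message of these sets, and 1 of its 17 genes passed. Atp5s, also called Dmac2l or coupling factor B, was that gene. It measured 8.05, 6.86 and 8.42 CPM in MODP and 5.00, 5.56 and 4.24 CPM in MOP, with no overlap, and fell by 0.65 ± 0.18 (SE, edgeR adjusted p = 0.023, passing in 12 of 16 alternatives). It was also the least abundant of the 17 genes per length. Atp5b, the catalytic beta subunit, measured 1348, 1269 and 1374 CPM in MODP and 1268, 1309 and 1352 CPM in MOP, with a log2 fold change of -0.02 ± 0.05. The MODP and MOP values were interleaved. The 3 genes for the membrane ring, Atp5g1, Atp5g2 and Atp5g3, encode the same mature protein with different import signals. Atp5g3 was the most abundant of them, with MODP at 275 to 282 CPM and MOP at 268 to 282 CPM. Atp5g2 ranged from 81.2 to 86.1 and from 73.6 to 76.9 CPM without overlap, yet its log2 fold change of -0.14 ± 0.06 did not pass (edgeR adjusted p = 0.095). Atp5g1 ranged from 18.9 to 22.8 and from 16.6 to 19.3 CPM, with -0.20 ± 0.11. Of the 16 genes that did not pass, all had intervals within 1.5-fold. None of the 17 was higher by edgeR, by DESeq2 or at an unadjusted p under 0.05.

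Per transcript length the levels differed far more between complexes than between the populations. The median level over the 6 libraries was 154 CPM per 1000 bases for ATP synthase, 144 for complex III, 113 for complex IV, 112 for complex II, 71.4 for complex I and 9.82 for its assembly factors. The most abundant genes on this scale were Atp5b at 689 in ATP synthase, Cox4i1 at 405 in complex IV, Ndufa4 at 328 in complex I, Uqcrh at 212 in complex III and Sdha at 137 in complex II. Cycs stood at 25.8. Lengths are medians over annotated protein-coding transcripts, so the level of a gene with long annotated variants is understated.

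**Figure D4:**
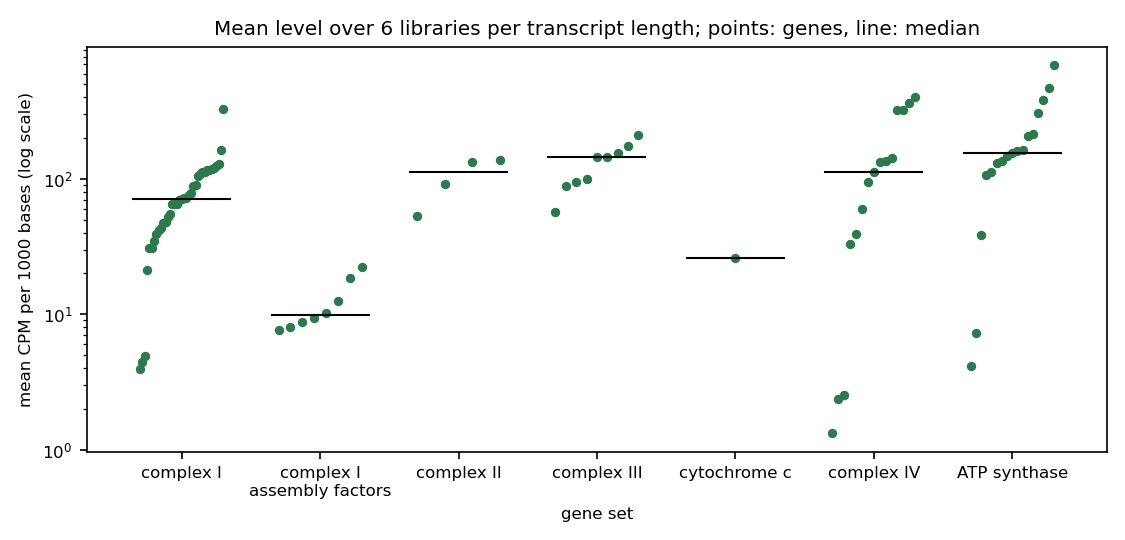
Mean CPM per 1000 bases of transcript over all 6 libraries, on a log axis, for each tested gene (points, sorted within a complex) with the median of the complex as a line. The assembly factors of complex I sit between 7.70 and 22.3, under most subunits.

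Summed over the 93 genes, the message was 10098, 10109 and 10260 CPM in MODP and 9610, 9828 and 10102 CPM in MOP, means of 10155 ± 90.4 and 9847 ± 246 (SD, n = 3). MOP replicate 3 lay just above MODP replicate 1, so the ranges overlapped, and the MOP mean was 97.0% of the MODP mean. Within pairs of equal column number, MOP was the lower library in 3 of 3 pairs, for all members together and for each set apart from complex II and complex IV, which had 2 of 3. By complex, the MOP mean was 94.9% of MODP for complex I, 88.1% for its assembly factors, 98.2% for complex II, 95.2% for complex III, 94.3% for cytochrome c, 99.1% for complex IV and 98.0% for ATP synthase. The ranges of both groups did not overlap for the assembly factors and complex III, and for complex I they nearly touched (2381 CPM in MODP replicate 1 and 2380 CPM in MOP replicate 3). The complex I sums include Ndufa4, at 158 CPM in MODP replicate 1 and 138 CPM in MOP replicate 3, and the complex IV sums do not. Without Ndufa4, MOP replicate 3 would be the higher of these libraries and the complex I ranges would overlap. These sums carry no test, and ATP synthase alone gave 4217 ± 86.9 CPM in MODP and 4133 ± 111 CPM in MOP.

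**Figure D5:**
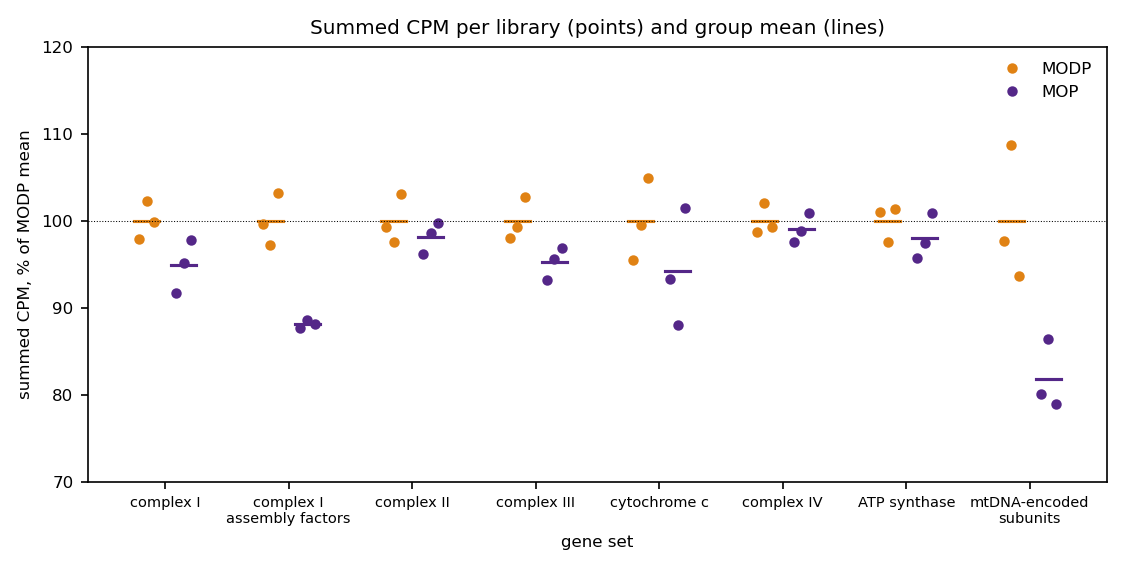
Summed CPM of each complex in each library (points) and the group mean (lines), as a percentage of the MODP mean; the vertical axis runs from 70 to 120. The MOP means lie at 88.1% for the assembly factors and between 94.3% and 99.1% for the other nuclear sets, and at 81.8% for the subunits encoded by mitochondrial DNA.

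The subunits encoded by mitochondrial DNA, which are not in the set of 93 but join the same complexes, were lower in MOP. Of 12 tested, 10 were lower and none was higher by edgeR, by DESeq2 or at an unadjusted p under 0.05, and the median log2 fold change was -0.35. In all 12 the MOP libraries lay under the MODP libraries, against 23.8% of all tested genes. By edgeR, 14.9% of all tested genes were lower. mt-Nd1 of complex I measured 2448, 2686 and 2329 CPM in MODP and 1891, 1972 and 1832 CPM in MOP, and fell by 0.39 ± 0.06 (SE, edgeR adjusted p = 0.0029). mt-Nd2 fell by 0.46 ± 0.08 (edgeR adjusted p = 0.0036). mt-Cytb, the cytochrome b of complex III, measured 3515, 3951 and 3497 CPM in MODP and 2725, 3143 and 2765 CPM in MOP, and fell by 0.34 ± 0.07 (edgeR adjusted p = 0.0093). mt-Co1 and mt-Atp6 did not pass (edgeR adjusted p = 0.072 and 0.12). With the replicate block both passed, while mt-Atp8 did not (edgeR adjusted p with the block 0.0031, 0.042 and 0.069). The number lower was 6 without MODP replicate 1, without MOP replicate 1 or without MOP replicate 2, and 5 without MOP replicate 3, and mt-Nd1, mt-Nd2, mt-Nd4, mt-Nd5 and mt-Cytb passed in all 16 alternatives. The genes mt-Nd3, mt-Nd4, mt-Co1, mt-Co2, mt-Co3 and mt-Atp6 share at least 50% of their 31-base words with other annotated genes, so their reads are uncertain.

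Set side by side, the 12 mitochondrial genes summed to 31267, 34812 and 29994 CPM in MODP and 25653, 27657 and 25264 CPM in MOP. The ratio of this sum to that of the 93 nuclear genes was 3.10, 3.44 and 2.92 in MODP and 2.67, 2.81 and 2.50 in MOP. Every MOP ratio lay below every MODP ratio, with MODP replicate 3 and MOP replicate 2 close together. The ratio carries no test. The mitochondrial ribosomal RNAs, named after their values were seen, were lower too: mt-Rnr2 by 0.76 ± 0.14 on the log2 scale (SE, edgeR adjusted p = 0.0093), whereas mt-Rnr1, at -0.65 ± 0.26, did not pass (0.13).

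The genes around the chain are given next, by lists of their roles. Over these lists, without the mitochondrial DNA subunits, 24 of 97 tested genes were lower and 6 were higher, or 24.7% and 6.19%, against 14.9% and 16.3% of all tested genes. Their median log2 fold change was -0.13. Among 8 assembly factors of complex I outside the Ndufaf names, 4 were lower: Nubpl, which brings iron-sulfur clusters, by 0.50 ± 0.13 (SE, edgeR adjusted p = 0.020), Ecsit by 0.39 ± 0.11 (0.027), Acad9 and Foxred1. Of 6 complex III factors Uqcc2 was lower, and of 21 complex IV factors Cox18 and Cmc1 were lower and Cmc2 was higher. Of the 16 alternatives, Nubpl and Cox18 passed 13, Ecsit and Acad9 12, Foxred1 10, Uqcc2 9, Cmc1 8 and Cmc2 7. No gene of the 4 factors of complex II or the 4 of ATP synthase passed with edgeR or DESeq2, and 1 and 0 of them had an unadjusted p under 0.05. In the synthesis of ubiquinone, 4 of 13 genes were lower and 1, Coq8b, was higher, the last in 7 of 16 alternatives. Coq8a, a kinase-like factor of that pathway, measured 17.2, 17.4 and 15.5 CPM in MODP and 8.31, 10.3 and 10.3 CPM in MOP, and fell by 0.79 ± 0.13 (edgeR adjusted p = 0.0027).

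Of 14 genes for transcription and upkeep of mitochondrial DNA, 6 were lower and 1, the polymerase gene Polg, was higher. Top1mt, the mitochondrial topoisomerase, measured 19.0, 19.6 and 18.7 CPM in MODP and 9.04, 11.8 and 10.6 CPM in MOP, and fell by 0.86 ± 0.12 (SE, edgeR adjusted p = 0.0017). Twnk, the replicative helicase, fell by 0.59 ± 0.11 (edgeR adjusted p = 0.0046). Of 11 nuclear regulators, 2 were lower and 2 were higher: Myc fell by 1.11 ± 0.08 (edgeR adjusted p = 0.00021) and Gabpb1, a partner of the ETS factor Gabpa, by 0.37 ± 0.07 (0.0039), while Gabpb2 rose by 0.30 ± 0.07 (0.0099) and Nrf1 by 0.23 ± 0.07 (0.029). Of 9 other donors of electrons, 4 were lower, led by Prodh, the proline dehydrogenase, at 49.3, 47.8 and 51.7 CPM in MODP and 27.0, 27.6 and 32.0 CPM in MOP (a fall by 0.78 ± 0.09, edgeR adjusted p = 0.00057). Etfb, the electron transfer flavoprotein gene, fell by 0.46 ± 0.07, with uncertain reads. Among 7 carriers, Ucp2, an inner membrane carrier of the uncoupling protein family, measured 722, 665 and 603 CPM in MODP and 1240, 1078 and 1095 CPM in MOP and rose by 0.78 ± 0.08 (edgeR adjusted p = 0.00052), and the phosphate carrier Slc25a3 fell by 0.14 ± 0.05 (0.0497). The Slc25a3 call held in 5 of 16 alternatives (adjusted p up to 0.16) and was lost whichever library was left out. Polg passed in 14 and Nrf1 in 11, while Top1mt, Twnk, Myc, Gabpb1, Gabpb2, Prodh, Etfb and Ucp2, like Coq8a above, passed in all 16. The 3 MOP libraries of Ucp2 lay far above all of MODP.

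Promoter windows were read for 76 of the 93 genes from RefSeq (GRCm38.p6), as the 250 bases before the start of transcription, since NRF1 and the ETS factor GABP are known activators of respiratory chain genes. The 4 shown are the higher gene, Cox6a1, and 3 of the lower genes, with matches to the motifs in capitals. They are every called gene whose window held a match, and Ndufa4 without one. The windows of Atp5s, Ndufaf2, Ndufb5 and Ndufs7, also called and without a match, are not shown. Cox6a2, Cox6c and Ndufaf6, also called, had no window and were not searched.
Cox6a1 (chr5:115348959-115349208, minus strand): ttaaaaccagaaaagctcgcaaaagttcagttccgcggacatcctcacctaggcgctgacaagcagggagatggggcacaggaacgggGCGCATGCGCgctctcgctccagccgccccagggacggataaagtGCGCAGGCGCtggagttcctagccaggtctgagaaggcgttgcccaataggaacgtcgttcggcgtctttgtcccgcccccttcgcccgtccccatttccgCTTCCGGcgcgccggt
Ndufaf4 (chr4:24897833-24898082, plus strand): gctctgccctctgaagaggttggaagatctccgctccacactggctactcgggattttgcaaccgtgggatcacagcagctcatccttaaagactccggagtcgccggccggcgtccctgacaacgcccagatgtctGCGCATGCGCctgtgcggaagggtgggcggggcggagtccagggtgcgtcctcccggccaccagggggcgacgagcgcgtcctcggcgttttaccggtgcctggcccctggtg
Uqcr11 (chr10:80406822-80407071, minus strand): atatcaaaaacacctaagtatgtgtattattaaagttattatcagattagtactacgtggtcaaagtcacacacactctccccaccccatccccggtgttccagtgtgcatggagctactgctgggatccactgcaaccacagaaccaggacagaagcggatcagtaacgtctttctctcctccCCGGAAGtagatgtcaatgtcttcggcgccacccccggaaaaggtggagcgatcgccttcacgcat
Ndufa4 (chr6:11907451-11907700, minus strand): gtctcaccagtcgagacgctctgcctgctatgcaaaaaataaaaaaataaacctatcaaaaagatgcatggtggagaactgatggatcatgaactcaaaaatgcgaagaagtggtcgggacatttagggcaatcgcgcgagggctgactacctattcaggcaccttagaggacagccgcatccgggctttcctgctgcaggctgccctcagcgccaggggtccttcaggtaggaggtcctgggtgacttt
Cox6a1 held 2 NRF1 matches and 1 ETS match, Ndufaf4 held 1 NRF1 match, Uqcr11 held 1 ETS match, and Ndufa4 held none. Motifs were searched on both strands as the NRF1 consensus with its central base free, CCGGAAG for ETS factors and AAGATGGC for YY1, and none of these strings contains another. Of 81 member windows, 18.5% held the NRF1 motif, against 3.74% of all 32851 windows and 5.18% of the 21263 windows of protein-coding genes. For the ETS motif the shares were 17.3%, 6.91% and 8.98%, and for YY1 1.23%, 1.56% and 1.5%. The 14 tested members with an NRF1 match had a median log2 fold change of -0.06 and 2 calls, and the 61 without had -0.08 and 6 calls. With an ETS match, 14 members had -0.08 and 2 calls, and 61 without had -0.08 and 6. A match is a string in the window and was not tested as a binding site.

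The replicates of these genes lay close together. The median within-group SD of log2(CPM + 0.5) was 0.0793 over the 91 tested members and 0.127 over all tested genes, and in the range of levels from 30.0 to 114 CPM, the middle of the members, it was 0.0761 for 45 members and 0.0911 for 4255 genes. In that range 4 of 45 members passed, against 34.6% of all genes there.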

How the data were processed

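Sorted MODP and MOP cells of mouse bone marrow gave 6 libraries (TruSeq RNA kit, TriZol extraction, per the labels' protocols). The authors deposited raw read counts per Ensembl gene, made with TopHat 1.4 and HTSeq, per the submitters' processing notes. Build, annotation and strand setting: not given in the sources used here. Reads of overlapping genes on opposite strands may therefore be mixed. Symbols came from GENCODE M21 by gene identifier (20840 of 22271 matched). Of the rule's matches, 8 rows that are not protein coding were left out.

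Counts were scaled by TMM, filtered by filterByExpr (12850 genes left) and tested with edgeR 4.0.16 (R 4.3.3): robust quasi-likelihood fit, group as the sole factor, Benjamini-Hochberg over all tested genes, threshold 0.05. Members and lists were chosen with earlier results of these data known. Genes named in full were the 2 with the smallest adjusted p of each complex or else the most abundant per length, the most abundant of each complex, calls past 1.5-fold, paralog sets, Cycs, Cyc1 and the Sdh genes, and up to 2 called genes of each other list. Other genes named with values (Ndufs7, Ndufaf2 and further genes of mitochondrial DNA) were chosen after their values were seen. Genes with at least 50% of their 31-base words in another gene were marked uncertain. DESeq2 1.42.0 was an alternative.

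Column names number the libraries 1 to 3 in each group, and these numbers are the replicates here; the sample titles use WT1, WT2 and WT1. Deviations from the group means over 9350 genes correlated at 0.589, 0.607 and 0.508 for equal column numbers and at -0.449 to 0.0499 otherwise, so the numbers were taken as pairs. Such deviations cancel within a group, so part of the negative values is forced. The main test had no block for these pairs, and the block was an alternative. Libraries of a group differed by 7.35 to 34.7 chi-square units per degree of freedom, so none held the same counts as another. Replicates 1 and 3, both titled WT1, were the closest pair in each group (7.35 in MODP and 8.76 in MOP). These values cannot show whether libraries came from the same animals, since they measure only how far counts differ. Tested on simulated data with 200 changed genes, the fit recovered 44%, 78%, 92% and 98% of genes changed 1.5-, 2-, 4- and 8-fold, and 8.24% of its 170 calls were false.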

Additional observations from a re-analysis of the deposited data

Results flagged for a closer look

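Reads were also present on pseudogene rows that the set leaves out, above the 3 reads that a count of 0 allows. Over the 6 libraries together, Atp5l-ps2 had 45 reads, Uqcrh-ps2 had 17, Cox6c2 had 7 and Atp5l2-ps had 6. They are copies of members, and whether these reads came from the copies or from the members was not tested.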

How the results depend on the processing

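16 alternatives were run for the counts of calls. With upper-quartile scaling 0 members were higher and 16 lower, and of all tested genes 1692 were higher and 2452 lower (2095 and 1913 with TMM). By complex that scaling called 6 genes in complex I, 3 in complex III and 2 in ATP synthase, and 3 other pathway genes were higher. Without a count filter 0 members were higher, and without both replicate 2 libraries 0 were higher and 6 lower, with 0 calls in complex III and 1 in complex IV. With the length offset 4 members were higher and 6 lower, with 1 call in complex II. With the replicate block by column number complex I had 7 calls, 14 members were lower and 1 was higher, and 41% of all tested genes passed. With the length offset and the block together 4 members were higher, with 5 calls in complex I, 1 in complex II and 2 in complex III. The block changed 4 member calls, all in complex I, and in other lists it added Coa7, Coq10a, Coq6, Gpd2, Polrmt, mt-Atp6 and mt-Co1 and ended the call of mt-Atp8.

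Leaving out 1 library at a time gave 1281 to 2524 genes higher and 1036 to 2275 lower, 0 to 3 members higher and 3 to 9 lower. The ranges were 0 to 3 calls for complex I assembly factors, 0 to 1 for complex II, 0 to 2 for complex III, 1 to 3 for complex IV and 0 to 1 for ATP synthase. For the subunits of mitochondrial DNA 5 to 10 were lower, and of the other pathway genes 8 to 26 were lower and 2 to 7 higher. The MOP sum of members was 94.2% of MODP with plain library totals and 93.4% with upper-quartile scaling (complex IV 96.3% and 95.4%), and upper-quartile scaling gave 84.9% for complex I assembly factors, 94.5% for complex II, 91.7% for complex III and 94.4% for ATP synthase. The cause of these shifts was not tested. No gene named as called changed direction in any alternative. With 3 libraries per group and 200 of 12850 genes changed, the simulated fit recovered 44% of genes changed 1.5-fold. That share cannot be carried over to these genes, because 31.2% of all tested genes passed in the data. The members also had a smaller median within-group SD (0.0793) than all tested genes (0.127). Some members passed at under 1.5-fold, Cox6a1 at 1.12-fold and Cox6c at 1.16-fold among them. Small differences could still go uncalled, and the share recovered among these genes was not tested.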
